A study of Mus musculus with 145 samples.

Results

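The mitosis genes described here are 40 genes whose proteins carry a cell through the end of the cell cycle: they condense the chromosomes, attach them to the spindle, check that attachment, and split the cell. They were chosen by name, with earlier results of these data known. Each was read from the probe set annotated to that symbol alone, the one with the highest mean over all arrays where a gene had several. Of the 40 genes 39 could be read, out of 19752 genes with such a probe set. Ccnb1, the main mitotic cyclin, had no probe set annotated to it alone and has no values here. The 39 genes are called members below, and the mean of their log2 intensities in an array is called the module mean.

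The series, part of a microarray atlas of mouse immune cells, holds arrays of cells sorted from mice in 65 groups. Of those groups 12 had 1 array, 28 had 2, 23 had 3 and 2 had 4. Each comparison below was made among related cells, and 36 comparisons were tested over 135 arrays of 55 groups. The labels do not say which arrays were run together, or whether the arrays of a group came from separate mice, so p-values here speak of the scatter among these arrays only.

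The groups were as follows. CD4 and CD8 T cells (CD62Lhi CD44lo CD25-) came from lymph nodes of 6 week old C57BL/6 males, and were read as controls and at 1, 5, 24, 48 and 96 h of culture with beads carrying antibodies to CD3 and CD28. The control arrays carry the same treatment text with no time. Spleen CD4 T cells of 6 week old mice were naive, effector on day 8 of LCMV infection, or memory on day 30. CD8 T cells were sorted from spleens of 45 day old B6 males after infection with LisOVA. They were Tbet+ (CD45.2+) and Tbet- (CD45.1+) cells on day 6, and KLRG1+CD127- and KLRG1-CD127+ cells on day 8. The group names give OT1, cells with one receptor for an ovalbumin peptide, on day 6 and not on day 8. Thymocytes positive for both CD4 and CD8 were CD69- (here DP) or CD69+ (DP69+) from 6 week old males, or CD69- at embryonic day 17, where the labels also state an age of 5 weeks and mixed sex. Gamma delta T cells of the embryonic day 17 thymus carried the Vg4 or Vg2 chain and high or low CD24. Their labels also state an age of 5 weeks.

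Thymic epithelial cells of C57BL/6 males of 5 or 8 weeks were named medullary or cortical, with high or low MHC class II, or Sca1+, and all of them carry the same marker text in the labels. A second set of medullary cells with high MHC class II came from 5 week old C57BL/6 mice of mixed sex, GFP+ or GFP-, with a GFP+ group marked KO for which the labels name no gene. Lymphatic endothelial cells (LEC) and fibroblastic reticular cells (FRC) came from subcutaneous lymph nodes of 6 week old males, the FRC also on day 6 after CFA, an adjuvant. Lung alveolar macrophages, CD11b+ lung macrophages, and monocytes of lung, blood and skin-draining lymph node came from 6 week old C57BL/6 males. Of these monocytes the node group was marked 6+2+ and the blood group 6+2-, while the name of the lung group held no such mark. Peritoneal F4/80hi macrophages labelled ctrl and Gata6ko came from 9 week old males of mixed background; the driver of the deletion is not given. Liver macrophages with high or intermediate F4/80 came from 6 week old males. From visceral fat came CD11b- dendritic cells (45 and 50 days), CD11b+ dendritic cells (48, 50 and 52 days) and macrophages (45, 50 and 52 days), with C57BL/6J stated for the first and the last. Skin and peritoneal mast cells were from mice of 6 weeks, blood neutrophils of 6 and 7 weeks and of 43 and 48 days, and blood eosinophils of 44, 48 and 50 days. Of the 4 arrays labelled as peritoneal mast cells, 2 name blood as the tissue. Other groups entered the ranking and correlations but no comparison. Double-negative node stroma (DN, also on day 6 after CFA), LEC on day 6 after CFA and FRC marked Cad11.WT were of 6 weeks. So were blood basophils, mast cells marked To and digest.PC, and monocytes marked 6+2+ of blood and MLN. A spleen B1a array was of 9 weeks and a fat eosinophil array of 45 days.

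A dividing cell makes most of these proteins only from late S phase through mitosis, and destroys many of them as it leaves mitosis. Their genes are held silent in resting cells by a repressor complex named DREAM, and are switched on late in the cycle by the same DNA-binding core together with MYBL2 and FOXM1. That core binds a short promoter element, the cell cycle genes homology region (CHR), often a few turns of DNA downstream of CCAAT boxes, which bind the factor NF-Y. In immune cells the transcripts are used as a readout of division: in thymocytes expanding after receptor rearrangement, in T cells expanding after antigen, and in tissue macrophages that renew in place.

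Promoters of the members are shown first because that element is the best known feature that these genes share and that their choice did not use. RefSeq windows from 250 bases before to 50 after the start site (GRCm38.p6) were available for 34 of the 40 names, in 36 windows. The CHR, searched as TTTGAA or TTCGAA on both strands, was found in 30 of the 36 windows, or 83.3%, against 19.2% of all 32851 promoter windows of the same length. From 50 bases before to 50 after the start it was found in 75% of the members' windows and 5.31% of all. The CCAAT box, searched as CCAAT on both strands, was in 72.2% against 37.4%, and both motifs were in 66.7% against 7.52%. Among 44 windows of other mitosis genes, 61.4% held the CHR, and among 35 windows of DNA replication genes 17.1% did. The 150 bases before the start are printed for the 6 members with a CCAAT box there and a CHR in the 50 bases before the start. They are also printed for Cenpa and Kif23, the members with a window whose levels departed most from the rest. Capitals mark CHR and CCAAT matches, which read as TTCAAA or ATTGG where they lie on the other strand.
Cdc20, chr4:118437344-118437493, minus strand: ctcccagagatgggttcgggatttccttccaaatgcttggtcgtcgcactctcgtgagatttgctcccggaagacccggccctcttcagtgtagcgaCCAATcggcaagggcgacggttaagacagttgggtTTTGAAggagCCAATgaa
Cdk1, chr10:69352913-69353062, minus strand: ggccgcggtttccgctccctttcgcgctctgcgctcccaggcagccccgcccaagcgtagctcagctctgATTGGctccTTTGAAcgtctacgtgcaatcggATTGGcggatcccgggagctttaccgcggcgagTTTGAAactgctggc
Kif11, chr19:37376232-37376381, plus strand: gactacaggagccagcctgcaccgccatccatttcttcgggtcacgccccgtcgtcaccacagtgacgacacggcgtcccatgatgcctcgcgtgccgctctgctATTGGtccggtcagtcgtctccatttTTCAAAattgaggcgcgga
Kif22, chr7:127042421-127042570, minus strand: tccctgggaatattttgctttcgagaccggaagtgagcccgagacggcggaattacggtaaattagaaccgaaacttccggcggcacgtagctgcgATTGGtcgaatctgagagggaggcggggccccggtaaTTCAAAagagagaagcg
Top2a, chr11:99024190-99024339, minus strand: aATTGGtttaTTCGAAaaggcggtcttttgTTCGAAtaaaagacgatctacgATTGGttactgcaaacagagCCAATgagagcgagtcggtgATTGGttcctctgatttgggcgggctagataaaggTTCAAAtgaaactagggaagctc
Prc1, chr7:80294326-80294475, plus strand: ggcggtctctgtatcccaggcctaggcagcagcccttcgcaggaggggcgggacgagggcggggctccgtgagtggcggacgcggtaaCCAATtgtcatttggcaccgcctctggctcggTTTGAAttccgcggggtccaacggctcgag
Cenpa, chr5:30666736-30666885, plus strand: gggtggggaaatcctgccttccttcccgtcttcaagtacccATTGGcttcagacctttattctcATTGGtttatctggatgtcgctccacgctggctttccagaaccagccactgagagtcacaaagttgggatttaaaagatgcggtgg
Kif23, chr9:61946800-61946949, minus strand: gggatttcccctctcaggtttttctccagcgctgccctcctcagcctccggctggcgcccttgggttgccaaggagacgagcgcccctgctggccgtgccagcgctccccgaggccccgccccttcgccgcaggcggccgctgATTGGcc
Counted in bases before the start, the CHR of Kif22, which encodes a chromosome-arm kinesin, began at 17, that of Cdc20 at 18, that of Kif11 at 19, that of Prc1 at 30, and those of Cdk1 at 71 and 15. In these promoters a CCAAT box lay upstream: at 54 for Kif22, 53 for Cdc20, 45 for Kif11, 62 for Prc1, and 80 and 48 for Cdk1. Top2a held 3 CHR and 4 CCAAT matches. The 150 bases printed for Cenpa and Kif23 held no CHR, and one lay just after the start, at base 17 in Cenpa and at base 3 in Kif23. That was common: a CHR lay in these 150 bases in 41.7% of the members' windows. Nuf2 and Nusap1, whose levels followed the rest closely, had no CHR in the whole window. A match of letters is a description and was not tested as a site.

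The level of the mitosis genes differed widely between the 65 groups, and thymocytes and activated T cells were at the top. The module mean was 10.92 ± 0.03 (log2 intensity, SD, n = 3) in double-positive thymocytes at embryonic day 17 and 10.33 ± 0.04 (n = 3) in adult ones. Embryonic gamma delta T cells were next, at 10.17 ± 0.12 (n = 2) in Vg4 CD24lo, 10.16 ± 0.03 (n = 3) in Vg4 CD24hi and 10.10 ± 0.06 (n = 3) in Vg2 CD24hi cells. T cells at 48 h of culture followed, CD8 at 10.08 ± 0.02 and CD4 at 10.06 ± 0.12 (n = 2 each). These 7 groups alone were above 10; the arrays of the 2 kinds of thymocyte did not overlap each other, and the gamma delta and 48 h T cell arrays overlapped.

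Below a gap of 1 log2 unit came a middle range of cells of several tissues. It held CD8 T cells at 24 h at 9.06 ± 0.07, CD11b- dendritic cells of fat at 8.76 ± 0.10, CD4 T cells at 24 h at 8.72 ± 0.27 (n = 2 each), and Aire-high GFP+ medullary epithelium at 8.39 ± 0.08 (n = 3). At the bottom, 17 groups were under 6.5, among them resting T cells, blood neutrophils (6.49 ± 0.04, n = 4) and monocytes. Lung monocytes were at 6.21 ± 0.07 (n = 3), naive CD4 T cells at 6.28 ± 0.06 (n = 2), and the lowest group, a single array of blood monocytes, at 6.17. In that lowest group 12 of the 39 members were above the background level given below. The spread within a group was small beside this: the median SD over the 53 groups with replicates was 0.086. Neighbours in the order mostly did not differ beyond that spread, since the arrays of 51 of the 64 neighbouring pairs of groups overlapped. Each array is RNA of many sorted cells, so fewer cycling cells and less RNA per cell cannot be told apart anywhere below.

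**Figure D1:**
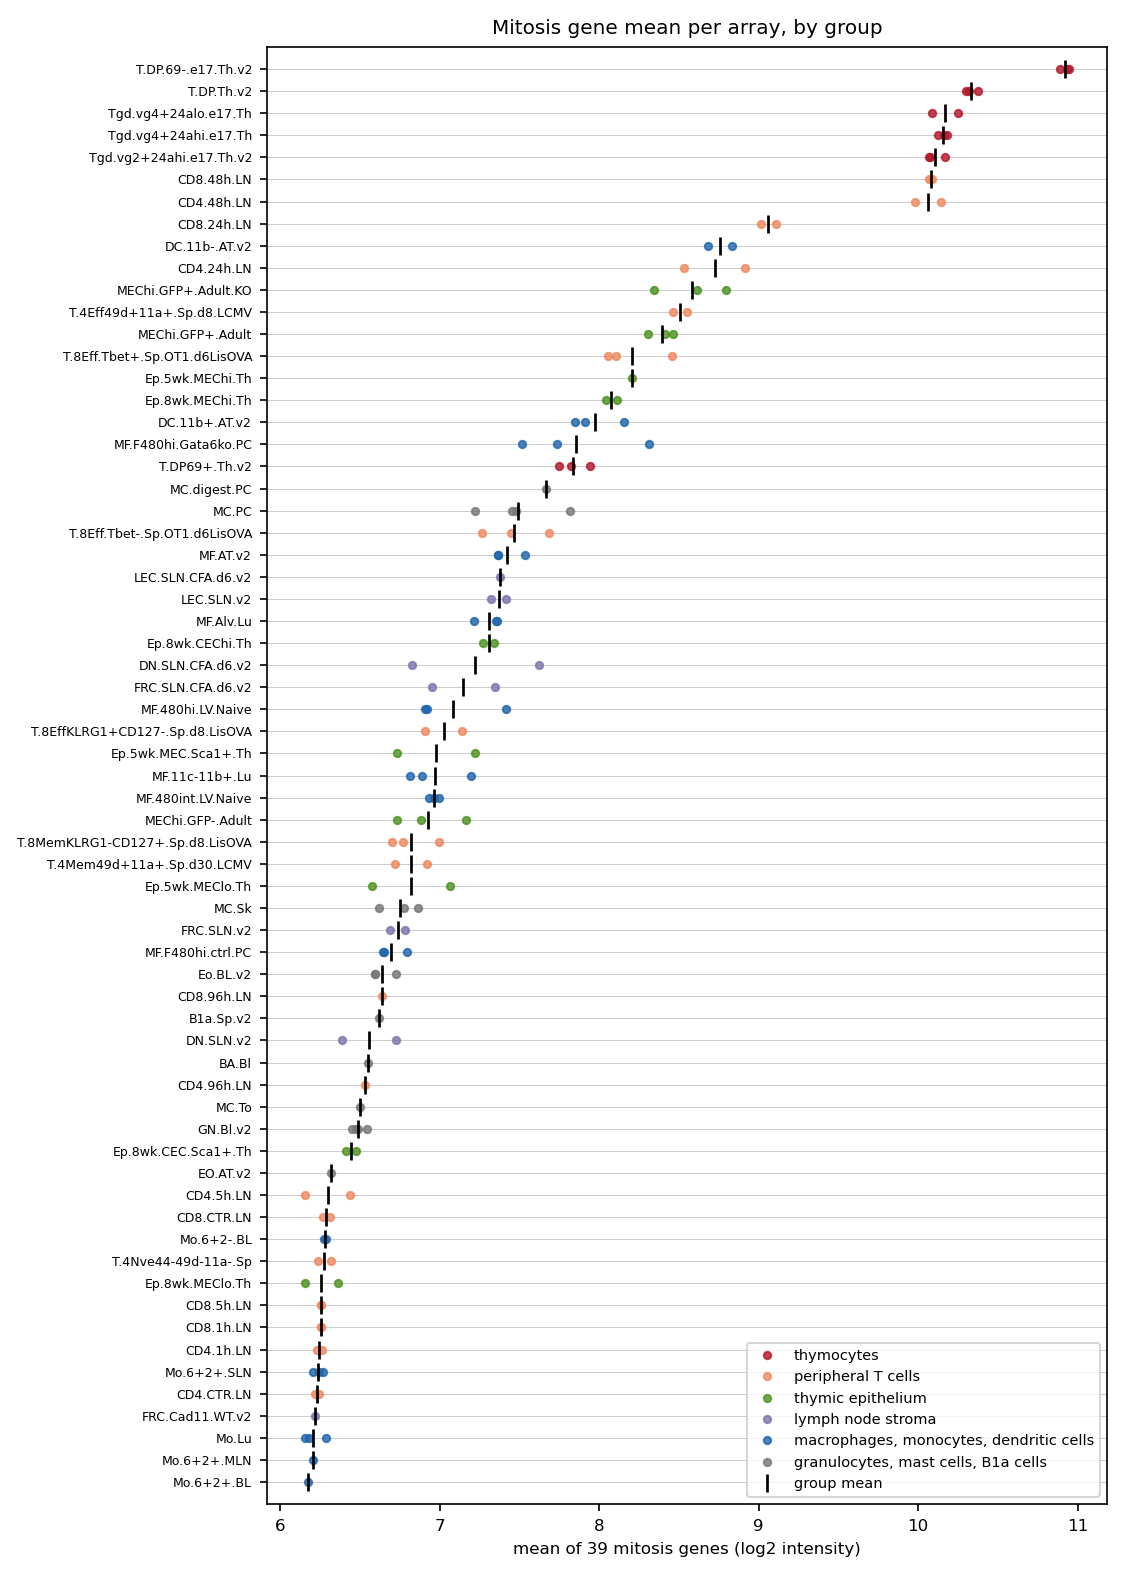
Module mean (mean log2 intensity of the 39 mitosis genes, x axis) in each of the 65 groups (y axis), ordered by level; each point is 1 array and the bar marks the group mean. Embryonic and adult double-positive thymocytes, gamma delta T cells of the embryonic thymus and T cells at 48 h of culture stand above 10, and 17 groups lie below 6.5.

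The array medians lay between 111.7 and 146.7 intensity units. A background level of 94.6 was taken from the 95th percentile of 1023 olfactory receptor probe sets, genes that these cells are not known to use. The thymic epithelial arrays were left out of that percentile, and the same level was applied to them. All 39 members were above it in 11 groups. The labels were checked against their genes: Cd69 was 3320 to 3586 in DP69+ cells and at most 296.1 in DP cells, Tbx21 was 2889 to 3326 in Tbet+ and 282.6 to 307.9 in Tbet- cells, and Klrg1 was 3832 and 4041 in KLRG1+ and at most 161.0 in KLRG1- cells. Aire was 3605 to 5203 in GFP+ and 495.3 to 772.3 in GFP- epithelium. Gata6 was 2568 to 3120 in the arrays labelled Gata6ko and 2553 to 3221 in the control arrays, so this probe set does not separate the groups, and whether it lies outside the deleted part is not given. The one label that the level goes against is therefore followed in words only ("arrays labelled Gata6ko").

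The members were alike in their order over the groups. In 36 of 39 the highest group was double-positive thymocytes at embryonic day 17. Bub1, the checkpoint kinase at kinetochores, ranged over the group means from 22.6 to 2522, and Ccna2, the cyclin of S and G2 phase, from 43.8 to 4800. Their low ends, like those of most members, lie within background, so the ranges set no order among members. Among the other kinases and cyclins Ccnb2, a B-type cyclin, ranged from 106.1 to 7129 and Plk1, the Polo kinase of mitotic entry, from 77.8 to 3511. Kif11, the kinesin that pushes spindle poles apart, ranged from 53.6 to 5669. Of the genes of chromosome structure Top2a, the topoisomerase that untangles chromosomes, ranged from 47.1 to 4577 and Mki67, the chromosome-coating Ki-67 antigen, from 73.8 to 5684. Cdc20, the activator that releases cells from the checkpoint, ranged from 114.1 to 1100. Cdc20 and Ccnb2 were above background in all 65 groups, and their means spanned 3.27 and 6.07 on the log2 scale. Ttk, another checkpoint kinase, was above background in 13 groups, and Smc4, a condensin subunit, also in all 65.

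Likeness was measured as the Pearson correlation, over the 65 group means, between a member and the mean of the other 38. It is a description with no p: the groups share scaling and many cell types. The median was 0.955, and 34 of 39 members were at 0.9 or more. The highest were Nuf2 (0.987) of the kinetochore, Kif4 (0.985), a chromokinesin, Ncapg (0.984) of condensin, Nusap1 (0.980) of the spindle, and Kif20a (0.979), a cytokinesis kinesin. The lowest were Smc4 (0.512), Cenpa (0.658), the centromere histone, Kif23 (0.749), the central spindle kinesin, Ndc80 (0.892) of the kinetochore and Anln (0.893), a cortex protein of the cleavage furrow. The other mitosis genes, 48 measured of 51 listed, had a median of 0.943, with 34 of 48 at 0.9 or more. DNA replication genes had a median of 0.859 (5 of 36 at 0.9 or more) and genes of G1 entry, such as D and E cyclins, 0.57 (1 of 13). Brakes on the cell cycle, such as CDK inhibitors and quiescence factors, had a median of 0.22 (0 of 17 at 0.9 or more, 7 of 17 below 0), beside -0.111 for all 19713 other genes. The 15 genes outside the list most like the module were Hmmr (0.984), Spag5, Cep55 and Esco2 (0.980 each), Ska3 (0.979), Cip2a, Knstrn, Kif18b, Stil, Pclaf, Cdca8, Cdca3, Depdc1a, Dlgap5 and Ckap2 (0.970). Of these, 11 were on the list of other mitosis genes. That list was chosen with earlier results of these data known, so the overlap is a description only.

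The 3 least alike members stood high in groups where the rest were low. Smc4 was 1381 and 1503 in control CD4 T cells and 1249 and 1766 in control CD8 T cells, where the module mean was 6.23 and 6.29. At 96 h of culture it was 3555 in the CD4 array, its highest group, and 2994 in the CD8 array, where the module mean was 6.53 and 6.64. Resting T cells were thus among the higher groups for Smc4 and among the lowest for the module. Kif23 was 1487, 1580, 1624 and 1527 in blood neutrophils, where the module mean was 6.49, and 2211 at most in any group. Cenpa was 628.2 and 507.2 in CD4 T cells after 1 h of culture, against 260.7 and 234.7 in the controls and 271.3 and 285.9 at 5 h. CD8 T cells showed the same order for Cenpa: 286.6 and 258.1 in controls, 558.7 and 567.6 at 1 h, and 275.6 and 267.8 at 5 h. The arrays at 1 h overlapped neither the controls nor 5 h; this was not among the tested comparisons.

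**Figure D2:**
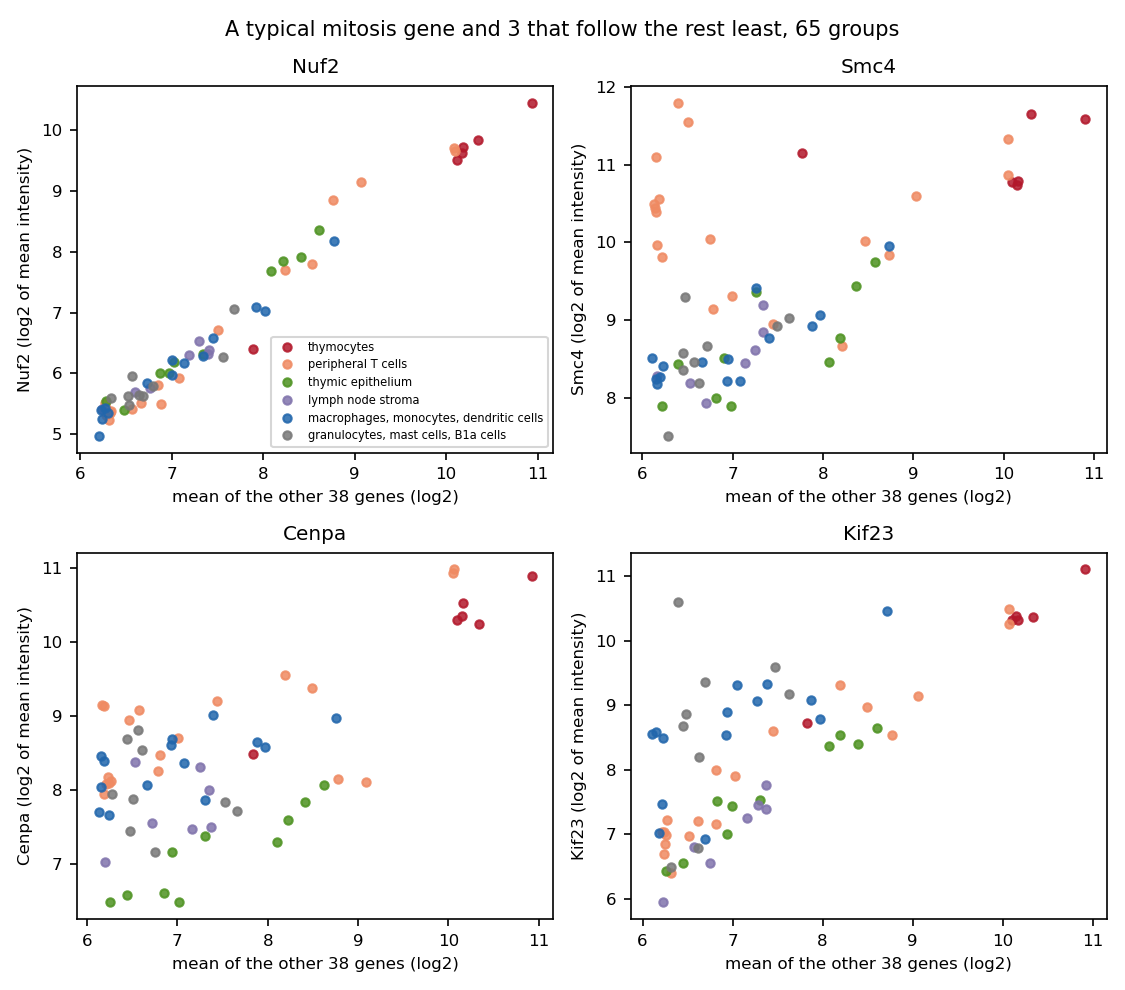
Level of Nuf2, Smc4, Cenpa and Kif23 (y axes, log2 intensity) against the mean of the other 38 mitosis genes (x axes, log2 intensity); each point is the mean of 1 of the 65 groups, coloured by cell class. Nuf2 follows the others closely (0.987), while peripheral T cells for Smc4 and blood neutrophils for Kif23 lie high at a low mean of the others.

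The balance of mitosis and DNA replication genes differed between groups and, in cultured T cells, rose from 24 to 48 h. The balance was taken as the mean log2 intensity of the members minus that of 36 replication genes. It was 0.77 in adult double-positive thymocytes, 0.69 in embryonic ones, 0.49 in GFP+ epithelium and 0.47 in its KO group. In CD4 T cells it was -1.25 in controls, -1.62 at 24 h and 0.07 at 48 h, and in CD8 T cells -1.40, -1.15 and 0.28. Naive CD4 T cells of the spleen were at -1.22. Of the 39 members 27 were within background in CD4 and in CD8 controls, as were 26 of the 37 tested in naive cells. The control and naive values thus rest in part on the background level. From control to 24 h the change had opposite signs in CD4 and CD8 cells. The CD4 arrays at 24 h also differed, with module means of 8.91 and 8.53 and replication means of 10.29 and 10.40. The 2 sums come from different probe sets, so the sign of a difference has no meaning of its own and only its change between groups is read.

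**Figure D3:**
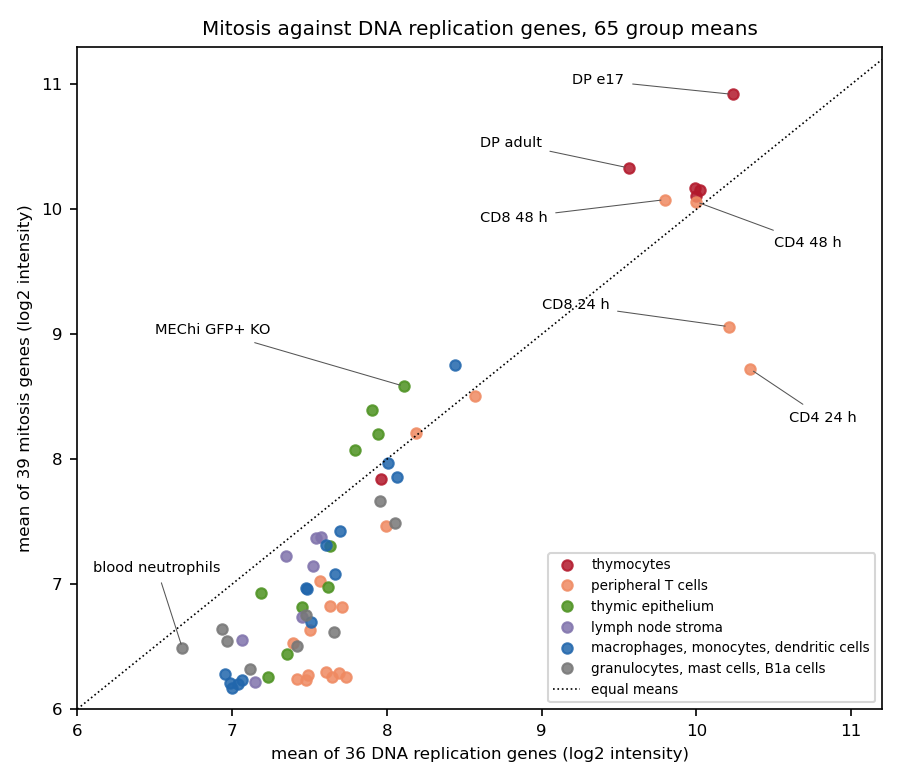
Mean log2 intensity of the 39 mitosis genes (y axis) against that of 36 DNA replication genes (x axis); each point is 1 of the 65 groups, and the line marks equality. The CD4 and CD8 groups at 24 h lie below the line, at -1.62 and -1.15, as do their controls, at -1.25 and -1.40, and the double-positive thymocytes above it, at 0.77 and 0.69.

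The first set of comparisons followed naive T cells in culture with beads that engage CD3 and CD28. Nearly all mitosis genes rose by 24 h and most rose again by 48 h, in CD4 and CD8 cells. At 5 h few were called, and most lay within background both there and in the controls. Differences are log2 fold changes from limma with Benjamini-Hochberg adjustment over all probe sets tested, called at an adjusted p under 0.05; a probe set entered the test if the group where it was brightest had a mean at or above the median value of the arrays fitted. Where the lower of 2 groups lay within background, the fitted change is no bound, and the fold against the background level is given as "at least".

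At 5 h 3 of 39 members were called in CD4 cells, in either direction, beside 31.2% of the 14411 probe sets tested. Of the 39, 25 were within background in control and 5 h cells alike, in CD4 and in CD8 cells. Those members entered the test only through a brighter group of the fit, so they do not show a lack of change. Ccna2 rose, from 47.7 and 50.9 to 64.2 and 146.1 (0.98, SE 0.26, adjusted p = 0.0086; at least 1.11-fold), while Ect2, the exchange factor of the cleavage furrow, fell by 0.77 and Kif23 fell by 0.64. Without the second CD4 array at 5 h, 1 member was called. In CD8 cells 2 of 39 were called beside 28.9%: Ect2, which fell by 0.57 (adjusted p = 0.039), and Ncapd2, a condensin subunit, which also fell. Leaving out any 1 of the 4 CD8 arrays left 0 or 1. Over the same hours Myc, of the G1 entry list, rose in both kinds of cell (2.08 and 1.57). Foxo1, a quiescence factor, fell (-1.37 and -1.49). Their lists were mixed: of 13 G1 entry genes 6 rose and 3 fell in CD4 cells, and 3 rose and 3 fell in CD8 cells. Of 17 brakes on the cell cycle 1 rose and 7 fell in each.

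At 24 h 36 of 39 members were higher than control in CD4 cells, beside 33.1% of all probe sets, and 37 of 39 in CD8 cells, beside 25.3%; no member was called lower. Without the filter on low values the counts were the same. The median change of the members was 2.56 in CD4 and 2.76 in CD8 cells, where that of all probe sets tested was 0.04 and -0.03. Ccna2 went from 47.7 and 50.9 in control CD4 arrays to 1962 and 1692 at 24 h, and from 63.8 and 67.9 to 2238 and 2731 in CD8 arrays. No array at 24 h came near a control array. The fitted change was 5.21 (SE 0.26, adjusted p = 3.7e-10) in CD4 cells, or at least 19.3-fold, and at least 26.3-fold in CD8 cells. Cdk1, the kinase that drives entry into mitosis, went from 115.1 and 98.2 to 1506 and 1699 in CD4 arrays (3.91) and from 98.4 and 88.5 to 1410 and 1725 in CD8 arrays (4.06). Further large rises were those of Bub1 (4.32 in CD4, 5.08 in CD8), Kif11 (4.12 and 4.75), Top2a (4.53 in CD8) and Ncapg2, a subunit of condensin II (4.01 in CD4). The controls of these 4 genes were within background: the folds were at least 5.96 and 9.91 for Bub1, 10.4 and 15.2 for Kif11, 15.7 and 18.5 for Top2a, and 7.34 for Ncapg2 in CD4. In all, the controls of 27 of the 39 members were within background in each cell type.

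By role, all 8 kinesins, all 6 kinases and cyclins, all 4 checkpoint genes and all 5 genes of spindle and cytokinesis rose in both. The members not called in CD4 cells were Smc4 (-0.85, adjusted p = 0.062), Cenpf, a kinetochore protein (0.47, adjusted p = 0.14), and Cenpa (0.19, adjusted p = 0.28). In CD8 cells they were Smc4 (0.06, adjusted p = 0.91) and Cenpa (0.02, adjusted p = 0.94). Cenpa was 289.8 and 276.1 in CD4 arrays at 24 h, near the control values given above. Smc4 at 24 h was 1363 and 470.1 in CD4 cells, a wide spread, and 1459 and 1642 in CD8 cells.

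The replication genes rose with them: all 36 were higher at 24 h in CD4 cells (median 2.87) and in CD8 cells (median 2.50), led by Rrm2, a subunit of ribonucleotide reductase, at 5.15 and 4.70. Of G1 entry genes 11 of 13 rose in each, led by Ccne2, an E cyclin, at 3.83 and 4.16. Other mitosis genes rose in 46 of 48 cases in CD4 and 45 of 48 in CD8 cells. Of the brakes 9 of 17 fell in each, led by Btg2, an antiproliferative factor (-2.42 and -2.20), and Klf2, a quiescence factor (-2.09 and -2.16), and 5 and 4 rose.

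From 24 to 48 h the mitosis genes rose further and the replication genes did not. In CD4 cells 35 of 39 members were higher at 48 h than at 24 h, beside 15.6% of all probe sets, and in CD8 cells 28 of 39, beside 14.9%. The median change was 1.26 in CD4 and 1.02 in CD8 cells; it was -0.34 and -0.41 over the 36 replication genes, of which 0 rose and 10 and 15 fell. Ccnb2 was 701.6 and 591.6 in CD4 arrays at 24 h and 5554 and 5087 at 48 h (3.05, SE 0.24, adjusted p = 2.4e-07), and in CD8 arrays it went from 796.3 and 968.4 to 5623 and 5957 (2.72). Cenpa, near its control values at 24 h, went from 289.8 and 276.1 to 2010 and 1928 in CD4 arrays (2.80, adjusted p = 8.7e-09). In CD8 arrays it went from 295.9 and 256.0 to 2364 and 1706 (2.87, adjusted p = 6.9e-09). Apart from its peak at 1 h, the rise of Cenpa came in this step. For Ccnb2 the group means at 48 h were above that of every other group but double-positive thymocytes at embryonic day 17. The CD4 arrays at 48 h overlapped those of adult double-positive thymocytes. Nusap1, which bundles spindle microtubules, rose by 2.47 and 1.92, and Plk1 by 1.95 and 1.58. Cdk1 was already at its level: 1737 and 1796 in CD4 arrays at 48 h, a change of 0.14 (adjusted p = 0.50).

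The members not called from 24 to 48 h in CD4 cells were Cdk1, Ncapg2, Smc2, the partner of Smc4 in condensin, and Kif20b, and in CD8 cells 11 were not called. All 7 kinetochore and centromere genes and all 5 of spindle and cytokinesis rose in both. Of the condensin and chromosome structure genes 6 of 8 rose in CD4 and 3 of 8 in CD8 cells. Orc1, which marks replication origins, fell by 1.41 and 1.62, and Ccng2, a cyclin of growth arrest, rose by 2.31 and 2.78, as did 13 of 17 brakes in CD4 and 12 of 17 in CD8 cells. In the single arrays at 96 h Ccna2 was 131.0 in CD4 and 103.9 in CD8 cells, and Ccnb2 was 287.9 and 330.9, below both arrays at 24 h and at 48 h in each case. For Ccna2 these values were above both control arrays. They have no replicate and were not tested.

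CD4 and CD8 cells were compared through the difference of their responses. No member was called between CD8 and CD4 cells in the response at 24 h (0 of 39, beside 0.659% of all probe sets; 4 of 39 at an unadjusted p under 0.05), nor in the step from 24 to 48 h (0 of 39, beside 0.347%; 1 of 39 unadjusted). Without the first CD4 array at 24 h 1 member was called in the first. These counts do not show that the responses were alike.

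**Figure D4:**
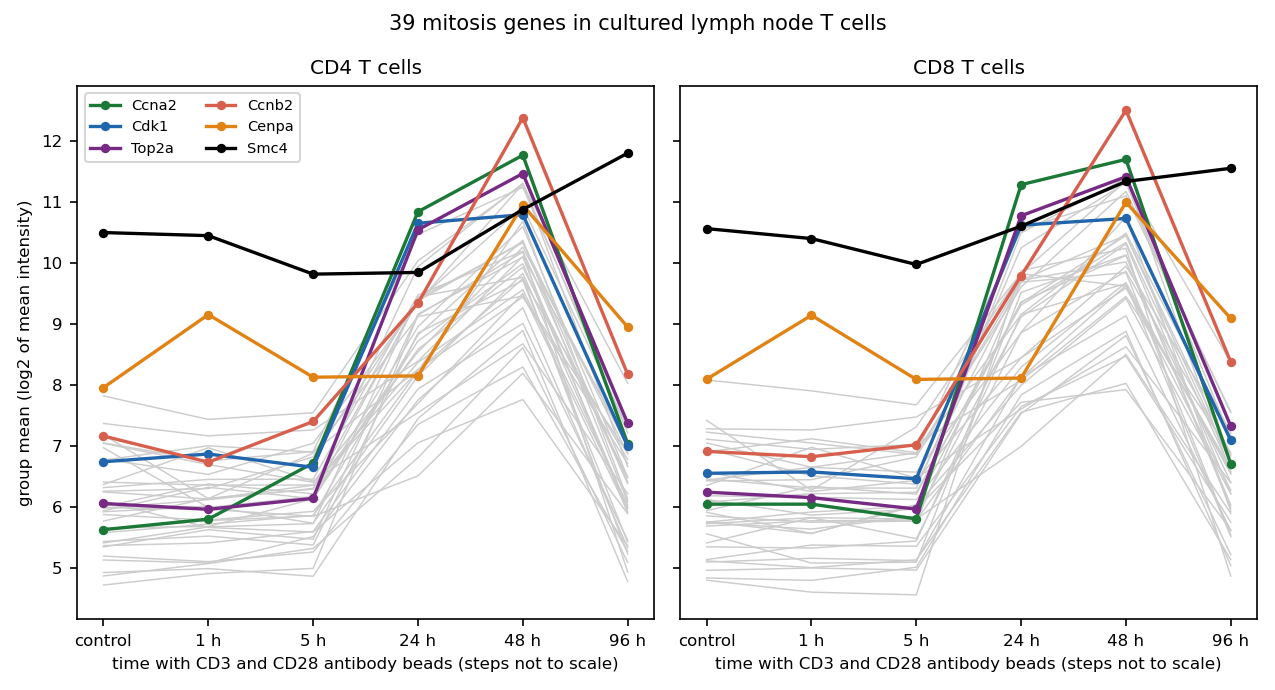
Group means (y axis, log2 of the mean intensity) of the 39 mitosis genes in CD4 and CD8 T cells, by time of culture with beads to CD3 and CD28 (x axis, control to 96 h, steps not to scale); 6 genes are coloured and the other 33 grey, with 2 arrays a point and 1 at 96 h. Cdk1 is near its top by 24 h, Ccnb2 and Cenpa rise steeply between 24 and 48 h, Cenpa also has a separate peak at 1 h, and Smc4 is highest at 96 h.

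In CD4 T cells of mice infected with LCMV the mitosis genes were high in effector cells on day 8, and memory cells on day 30 lay between naive and effector. Mki67 was 78.0 and 86.2 in naive arrays, 1733 and 1476 in effector arrays and 319.8 and 421.2 in memory arrays. The 3 groups did not overlap. Ccnb2 had the same order, with 149.6 and 148.6 in naive, 2146 and 2445 in effector and 436.7 and 509.6 in memory arrays. From naive to effector 36 of the 37 members tested rose, beside 18.7% of all probe sets (38 of 39 with no filter), led by Mki67 (4.29), Ccna2 (3.95), Ccnb2 (3.94), Kif11 (3.93) and Top2a (3.84). Naive cells were within background for Mki67 (at least 17-fold), Ccna2 (at least 11.5-fold), Kif11 (at least 10.7-fold) and Top2a (at least 11.4-fold). Smc4 went the other way, where 13.5% of all probe sets were lower in effector than in naive cells. It was 2088 and 2292 in naive arrays, 1068 and 1007 in effector and 1068 and 1046 in memory arrays (-1.08 from naive to effector, -1.05 from naive to memory). Of the lists 33 of 36 other mitosis genes and 26 of 33 replication genes rose, led by Knl1, a kinetochore scaffold (2.84), and Rrm2 (3.29).

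From effector to memory 36 of 37 members fell, beside 6.15% of all probe sets (38 of 39 with no filter), led by Bub1 (-2.76, at least 3.07-fold), Nusap1 (-2.64, at least 5.03-fold) and Ccna2 (-2.64). Memory cells were still above naive cells in 18 of 37 members, beside 8.03% (17 of 39 with no filter), with Smc4 alone lower, beside 6.44%. Of those 18, 10 were within background in memory and naive cells alike, Bub1 and Nusap1 among them, and were tested only because effector cells were high. Of the rises from naive to memory with memory cells above background, the largest were those of Mki67 (2.16, at least 3.92-fold), Ccnb2 (1.66), Kif11 (1.51, at least 2.03-fold) and Top2a (1.40, at least 2.10-fold). Without the second memory array, 8 members in all were called there. The labels of the naive arrays differ in how background and excluded markers are written.

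Among OT1 CD8 effector cells on day 6 of LisOVA infection, mitosis genes were lower in Tbet- than in Tbet+ cells, with replication genes mostly not called. Of 35 members tested 25 fell, beside 3.96% of all probe sets (26 of 39 with no filter), and none rose. Nusap1 was 294.4, 573.7 and 466.5 in Tbet+ and 138.2, 218.0 and 161.7 in Tbet- arrays (-1.34). Ccnb2 was 2585, 3185 and 3211 in Tbet+ and 1406, 1900 and 1397 in Tbet- arrays. In both genes the groups did not overlap. Bub1 (-1.25), Cdk1 (-1.17), Mki67 and Ccna2 (-1.14 each) also fell, and Smc4 (0.30, adjusted p = 0.36) and Ncapd2 (-0.11) were not called. Other mitosis genes fell in 20 of 36 cases, led by Esco2, a cohesin acetyltransferase (-1.28), while of the replication genes 1 of 33 did, Rrm2 (-0.77). Without the first Tbet- array the count was 12, and without the third 16. The groups differ in the CD45 allele as well as in Tbet, which cannot be told apart. The summed B cell markers were 1842 to 2031 in Tbet- and 728.2 to 1051 in Tbet+ arrays, mostly Cd79b, with Ms4a1, Cd79a and Pax5 within background; their part in the result was not tested.

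On day 8, no member of 20 tested was called between KLRG1+CD127- and KLRG1-CD127+ cells (0 of 20, beside 0.382% of all probe sets; 3 at an unadjusted p under 0.05). Ccnb2 was 580.5 and 1125 in KLRG1+ and 659.5, 226.0 and 189.0 in KLRG1- arrays (1.41, SE 0.50, adjusted p = 0.51). One KLRG1- array lay between the KLRG1+ arrays, and without it, the first, 1 member was called. Cdk1 had a difference of 0.62 (adjusted p = 0.42).

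In the thymus, double-positive cells that carried CD69, a sign of receptor signalling during selection, held less of every mitosis gene than CD69- cells. All 39 members fell, beside 21.1% of all probe sets. Ncapg, a condensin subunit, was 1719, 1706 and 1716 in DP arrays and 167.6, 120.0 and 119.9 in DP69+ arrays (-3.68). Mki67 was 5015, 4777 and 4904 in DP and 749.3, 651.7 and 868.7 in DP69+ arrays. Neither gene overlapped between the groups. Nuf2 (-3.45, at least 9.68-fold) and Bub1 (-3.24) followed, and the smallest fall was again that of Smc4, from 3336, 3296 and 3008 to 2805, 1926 and 2063 (-0.52, adjusted p = 0.0018). The median fall was 2.63 for the members and 2.21 for 48 other mitosis genes, of which 46 fell (led by Depdc1a, -3.47). It was 1.44 for replication genes, of which 36 of 36 fell, led by Rrm2 (-3.42). Foxm1, the mitotic transcription factor, fell by 2.31.

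Double-positive thymocytes at embryonic day 17 were higher than adult ones in 34 of 39 members, beside 24.2% of all probe sets, by a median of 0.62. Ccnb2 was 7392, 6933 and 7063 in embryonic and 5194, 4798 and 4857 in adult arrays, with no overlap. The largest rises were those of Kif2c, a kinesin that takes microtubules apart (1.02), Kif4 (0.95) and Kif20a (0.90). The 5 not called included 4 of the chromosome structure genes: Mki67 (0.21), Top2a (0.22), Ncapg (0.26) and Smc4 (-0.07), with Kif20b the fifth. Mki67, for example, was 5291, 6024 and 5738 in embryonic arrays, above the adult range. Of the replication genes 33 of 36 rose (median 0.72), led by Chaf1b, a histone chaperone subunit (1.19), and of other mitosis genes 45 of 48, led by Cdc25c, the phosphatase that activates Cdk1 (1.07). With all arrays of the series in one fit, 22 members were called. Sex differs between the groups in the labels and cannot be told apart from age.

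Gamma delta T cells of the same embryonic thymus were lower than embryonic double-positive cells in all 39 members, beside 22.3% of all probe sets, by a median of 0.79. The falls ran from Cenpf (-1.17) to Birc5, the survivin of the chromosomal passenger complex (-0.44). Ncapg, for example, was 1966, 2164 and 2020 in double-positive and 1129, 1400 and 1230 in Vg4 CD24hi arrays. The lists moved too: 42 of 48 other mitosis genes fell, led by Depdc1a (-1.43), and 16 of 36 replication genes, led by Rrm2 (-0.91). Of the brakes 13 of 17 were lower as well, led by Cdkn2c, an inhibitor of CDK4 and CDK6 (-1.74). No member was called between Vg4 and Vg2 CD24hi cells (0 of 39, beside 0.774%; 1 at an unadjusted p under 0.05). From CD24hi to CD24lo, a step of maturation, 3 of 39 members were called in either direction, beside 18.8%. Anln rose, from 873.9, 924.9 and 894.2 to 1276 and 1327 (0.54), while Ncapd2 fell by 0.46 and Kif2c fell by 0.37. Without the first CD24lo array 1 was called, and the count was 0 with all arrays in one fit.

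In thymic epithelium of 8 weeks, mitosis genes were high in medullary cells with high MHC class II and low in those with low MHC class II. Bub1 was 33.8 and 41.4 in MEClo and 315.9 and 374.7 in MEChi arrays (3.20), and Cdk1 was 110.6 and 146.0 in MEClo and 871.7 and 1057 in MEChi arrays (2.92). Neither overlapped, and Bub1 was within background in MEClo cells, so that its fold was at least 3.65. All 31 members tested rose, beside 18.7% of all probe sets, and 38 of 39 with no filter. Top2a (3.02, at least 5.66-fold), Ccna2 (3.01), Kif11 (2.93, at least 6.51-fold) and Plk1 (2.92) were among the largest rises, and Smc4 (0.56) had the smallest. Of the other mitosis genes 24 of 29 rose, led by Cks2, a small CDK-binding protein (2.61), and of the replication genes 15 of 28, led by Pole, a replicative polymerase (1.98). The summed neutrophil markers were 3176 to 3404 in MEChi and 213.1 to 214.4 in MEClo arrays, with 3 of 6 above background in MEChi, Ly6g the highest, and Cxcr2, Mmp8 and Retnlg within background. Myeloid precursor markers summed to 2295 to 2314 and 1115 to 1255, with Elane, Prtn3 and Ctsg within background in both groups. The part of these in the result was not tested.

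Cortical cells with high MHC class II (CEChi) were lower than MEChi in 22 of 31 members, beside 22.9% of all probe sets (25 of 39 with no filter). Cdk1 was 219.5 and 217.7 in CEChi arrays (-2.13), and Anln (-2.01), Plk1 (-1.56) and Kif4 (-1.56, at least 1.5-fold) followed. Smc4 and Spc25, a kinetochore subunit, were higher, where 25% of all probe sets were called higher. Smc4 was 356.2 and 346.5 in MEChi and 604.0 and 709.6 in CEChi arrays (0.90). Spc25 was 178.4 and 123.3 in MEChi and 199.9 and 280.1 in CEChi arrays (0.67). Of the other mitosis genes 18 of 29 were lower, led by Melk, a kinase of dividing cells (-2.13). T cell markers summed to 2538 to 3088 in CEChi arrays (5 of 5 above background) and 644.5 to 696.2 in MEChi arrays (3 of 5). The double-positive thymocyte markers summed to 3463 to 3854 in CEChi arrays (6 of 7 above background, Rag2 within it) and 576.6 to 616.3 in MEChi arrays (3 of 7; Rag1, Rag2, Dntt and Ptcra within background). CD69- double-positive thymocytes held all 39 members above background, and the part of these cells' RNA in the values of CEChi was not tested.

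Sca1+ cortical cells were lower than CEChi in 20 of 31 members, beside 7.19% of all probe sets (20 of 39 with no filter). Bub1 was 140.7 and 141.2 in CEChi and 53.4 and 47.4 in Sca1+ arrays. Spc25 (-1.84, at least 2.54-fold), Kif11 (-1.78), Ccna2 (-1.65) and Top2a (-1.63, at least 2.66-fold) fell most, and 2 of the 20, Ncapg and Nuf2, were within background in both groups. T cell markers fell with them, to 745.1 to 1067, with Cd3d and Cd2 within background. Double-positive thymocyte markers fell to 778.4 to 896.7, with Rag1, Rag2 and Dntt within background. The part of both lists was not tested. This count rested on single arrays: it was 10 without the first Sca1+ array, 11 without the first and 7 without the second CEChi array. Between Sca1+ and MEClo medullary cells of 5 weeks no member was called (0 of 31, beside 6.24%; 1 at an unadjusted p under 0.05, and 2 called without the first MEClo array).

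The second set of medullary cells was sorted by GFP, and Aire, the medullary transcription factor, followed GFP as given above. Mitosis genes were higher in GFP+ than in GFP- cells in all 35 members tested, beside 28.9% of all probe sets, and in 39 of 39 with no filter. Bub1 was 59.3, 88.3 and 88.0 in GFP- and 362.0, 357.0 and 362.8 in GFP+ arrays, with no overlap. Ccna2 (2.34), Kif11 (2.26), Bub1 (2.22, at least 3.81-fold) and Nusap1 (2.20) rose most. Cenpa rose least (0.68), from 124.4, 143.2 and 163.6 to 228.8, 228.7 and 228.5. Of other mitosis genes 31 of 37 rose, led by Cdc25c and Hmmr, a spindle assembly protein (2.14 each), and of replication genes 28 of 32, led by Uhrf1, which keeps DNA methylation through replication (1.70). Neutrophil markers summed to 2923 to 3618 in GFP+ and 1367 to 1980 in GFP- arrays. Most of this was Ly6g, at 2705 and 1460, and Cxcr2, Mmp8 and Retnlg were within background in both groups. Their part was not tested.

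In the GFP+ group marked KO 3 of 35 members were higher than in the other GFP+ group, beside 9.40%. They were Bub1b, a checkpoint kinase (0.65), and the condensin subunits Ncapg (0.53) and Ncaph (0.39). Ncapg was 233.5, 256.6 and 283.9 in GFP+ and 323.6, 450.0 and 349.3 in KO arrays. The counts were 1 without GFP+ replicate 7 and 1 without KO replicate 2. Neutrophil markers were 221.4 to 229.5 in the KO arrays, with 0 of 6 above background.

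In lymph node stroma the mitosis genes were at low to middle levels, and some were higher in LEC than in FRC. Of 26 members tested 13 rose, beside 16.2% of all probe sets (19 of 39 with no filter), and 2 fell, beside 20.2%. Top2a was 321.9 and 350.5 in LEC and 114.1 and 148.3 in FRC arrays (1.37), and Kif11 (1.33), Nusap1 (1.27) and Mki67 (1.26) followed. Lower in LEC were Tpx2, a spindle assembly factor, at 177.4 and 205.1 against 411.4 and 321.7 (-0.93), and Cdk1, at 291.4 and 357.8 against 497.7 and 534.2 (-0.68). Each count rests on 4 arrays: without FRC replicate 1 it was 4 in all, without FRC replicate 2 it was 8, without LEC replicate 1 it was 5 and without LEC replicate 2 it was 3. On day 6 after CFA no member of 26 was called in FRC, beside 0.00707% of all probe sets, and 7 were at an unadjusted p under 0.05. Mki67 was 188.7 and 183.2 in FRC and 468.3 and 313.3 after CFA (1.04, adjusted p = 0.30), so its arrays did not overlap and the test did not call it.

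In the lung, macrophages held more of the mitosis genes than monocytes did. From lung monocytes to CD11b+ lung macrophages 17 of 24 members tested rose, beside 20.7% of all probe sets (26 of 39 with no filter), and none fell. Ccna2 was 53.6, 55.9 and 50.5 in monocytes and 272.3, 240.0 and 345.2 in CD11b+ macrophages (2.41, at least 3.02-fold). Mki67 was 74.0, 90.9 and 77.4 in monocytes and 290.8, 297.5 and 433.5 in CD11b+ macrophages (2.06, at least 3.60-fold). Anln (1.77, at least 2.06-fold) and Ccnb2 (1.58) also rose. Bub1 and Tpx2, 2 of the 17, were within background in both groups. Of the replication genes 18 of 27 rose, led by Rrm1, the other ribonucleotide reductase subunit (1.37). Of the other mitosis genes 10 of 22 rose and 4 fell, and the largest changes were falls, of Racgap1, the partner of Kif23 at the central spindle (-1.66), and Cks2 (-1.60).

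Alveolar macrophages differed from CD11b+ macrophages in both directions. Of 24 members tested 10 rose (10 of 39 with no filter), near the 33.4% of all probe sets that were called higher. Of the 24 members 2 fell, beside 20.7% of all probe sets. Bub1b was 547.8, 572.0 and 491.7 in alveolar and 102.2, 100.9 and 144.9 in CD11b+ arrays (2.23), Anln was 638.5, 537.2 and 542.0 against 137.8, 196.8 and 249.5 (1.59), and Ccnb2 was 1038, 1189 and 1053 against 332.8, 350.8 and 439.6 (1.56). Mki67 was 411.3, 443.3 and 455.4 in alveolar arrays and was called higher (0.38) although its arrays overlapped those of CD11b+ macrophages. Cenpa (-0.82) and Ncaph (-0.65) fell.

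Between monocytes of different sites single members were called, in both directions. The node group was marked 6+2+ and the blood group 6+2-, and the lung group held no such mark. Site and subset therefore cannot be told apart here. Of the 24 members tested, 11 were within background in node and lung monocytes alike, and 12 in lung and blood monocytes alike. Those members entered the test only through a brighter group of the fit. Between skin-draining lymph node and lung 2 of 24 members were called in either direction, beside 13.5%: Mki67 rose by 0.72 and Kif23, at 182.4, 167.4 and 183.3 in the node and 408.3, 437.7 and 301.4 in the lung, fell by 1.09. The count was 4 without the second lung array. Between lung and blood 3 of 24 were called, beside 7.69%, and 0 without the third blood array. Cenpa was higher in lung, at 305.9, 336.8 and 419.5 against 208.5 and 195.9 in blood (0.80), while Mki67 fell by 0.69 and Ccnb2 by 0.60.

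Peritoneal macrophages in the arrays labelled Gata6ko held more of nearly every member than the controls. Of 32 members tested 31 rose, beside 4.84% of all probe sets (33 of 39 with no filter). Kif23 was 106.2, 104.2 and 154.4 in ctrl arrays and 465.2, 677.6 and 477.3 in the arrays labelled Gata6ko (2.15, SE 0.19, adjusted p = 0.00075). Kif11 was 130.8, 125.5 and 164.5 in ctrl and 332.0, 754.7 and 362.4 in Gata6ko arrays (1.69), and Mki67 was 176.5, 158.3 and 205.9 against 399.8, 724.6 and 442.8 (1.49). The groups did not overlap in these genes, and 1 array labelled Gata6ko was the highest in each. Bub1 (1.71, at least 2.35-fold), Ccnb2 (1.56) and Ccna2 (1.53) also rose, and Cenpa was the member not called (0.56, adjusted p = 0.072). Of the other mitosis genes 19 of 32 rose, led by Aspm, a spindle pole protein (1.44), and of the replication genes 15 of 33, led by Rrm2 (1.21). Without the second ctrl array 18 members were called. Lymphatic endothelium markers summed to 2538 to 2822 in the arrays labelled Gata6ko and 479.5 to 652.4 in ctrl arrays, with Lyve1 the highest and Flt4, Pecam1 and Cdh5 within background; their part was not tested.

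In the liver, macrophages with high F4/80 differed from those with intermediate F4/80 in 1 of 20 members, beside 20.2% of all probe sets. That member was Kif23, at 770.7, 575.1 and 571.5 against 393.4, 403.0 and 324.1 (0.77, adjusted p = 0.0088). Without the first F4/80hi array 3 members were called, and without the second F4/80int array 2.

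In visceral fat the mitosis genes were highest in CD11b- dendritic cells, then in CD11b+ dendritic cells, then in macrophages. Kif11, for instance, was 1660 and 1293 in CD11b- dendritic cells, 499.4, 677.9 and 529.9 in CD11b+ dendritic cells, and 376.2, 260.3 and 285.6 in macrophages, with no overlap. From CD11b- to CD11b+ dendritic cells 21 of 38 members fell, beside 10.3% of all probe sets (19 of 39 with no filter), led by Kif23 (-1.67), Ncapg2 (-1.51) and Kif11 (-1.38). From there to macrophages 19 of 38 fell, beside 6.55% (18 of 39 with no filter), led by Bub1 (-1.16), Nusap1 (-1.06) and Ncapg (-1.03, at least 1.97-fold). Of these 19, 2 (Kif20b and Kif4) were within background in both. Kif23 went the other way without being called, from 496.1, 437.0 and 394.5 to 535.0, 678.8 and 715.7 (0.54, adjusted p = 0.065). Among other mitosis genes 17 of 41 fell in the first step, led by Knl1 (-1.26), and 14 of 41 in the second, led by Cks1b, a CDK-binding protein (-1.68).

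The fat comparisons rest on few arrays. The first gave 4 without CD11b- replicate 1, 6 without CD11b- replicate 3 and 13 without CD11b+ replicate 2. The second gave 11 without CD11b+ replicate 4, 10 without macrophage replicate 3 and 7 without macrophage replicate 4. Dendritic cell markers summed to 20040 to 20610 in CD11b- and 5552 to 9799 in CD11b+ arrays, and macrophage markers to 3489 to 3552 and 8273 to 11100, with Mertk, Fcgr1, Adgre1, C1qa and Mrc1 within background in the CD11b- arrays. The labels give mice of 45 to 52 days across these groups.

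Among granulocytes and mast cells, peritoneal mast cells held more of the mitosis genes than skin mast cells did. Of 24 members tested 16 were lower in skin, beside 15.8% of all probe sets (23 of 39 with no filter). Without the 2 peritoneal arrays that name blood as the tissue, replicates 5 and 6, the count was 19. Ccna2 was 552.7, 401.3, 371.9 and 492.2 in peritoneal and 198.5, 129.1 and 119.3 in skin arrays (-1.63), and Kif11 was 656.4, 323.8, 288.5 and 328.8 against 161.1, 143.2 and 91.8 (-1.55). The groups did not overlap, and 1 peritoneal array stood well above the other 3 for Kif11. Bub1 was lower as well (-1.53, at least 1.54-fold). Of the replication genes 17 of 31 were lower, led by Mcm6 of the replicative helicase (-1.54). Myc (2.50) and Btg1, an antiproliferative factor (2.02), were higher in skin. Their lists were mixed: of 13 G1 entry genes 2 were higher and 4 lower, and of 17 brakes 4 were higher and 2 lower. Fibroblastic reticular markers summed to 2443 to 2648 in skin and 837.0 to 1155 in peritoneal arrays, with Pdgfrb the highest in skin, at 1571. Macrophage markers summed to 1333 to 1403 and 467.3 to 553.0, with Cd68 the highest. Mertk, Fcgr1, Adgre1 and Mrc1 were within background in both groups. The part of both lists was not tested.

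Blood eosinophils and neutrophils were both low, and 6 of 24 members differed in either direction, beside 36.7% of all probe sets. Ccna2 (1.01), Kif11 (0.72), Mki67 (0.68), Bub1 and Smc2 (0.64 each) were higher in eosinophils, the last 2 within background in both cells. Kif23 was far higher in neutrophils, at 1487 to 1624, than in eosinophils, at 253.6, 228.2 and 397.3 (-2.45). The count was 3 without eosinophil replicate 5 and 3 without neutrophil replicate 7. Neutrophil markers summed to 9698 to 10550 in eosinophil and 50680 to 54140 in neutrophil arrays. In eosinophils Retnlg was the highest of them, at 8822, and Mmp8 was within background. Their part was not tested.

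**Figure D5:**
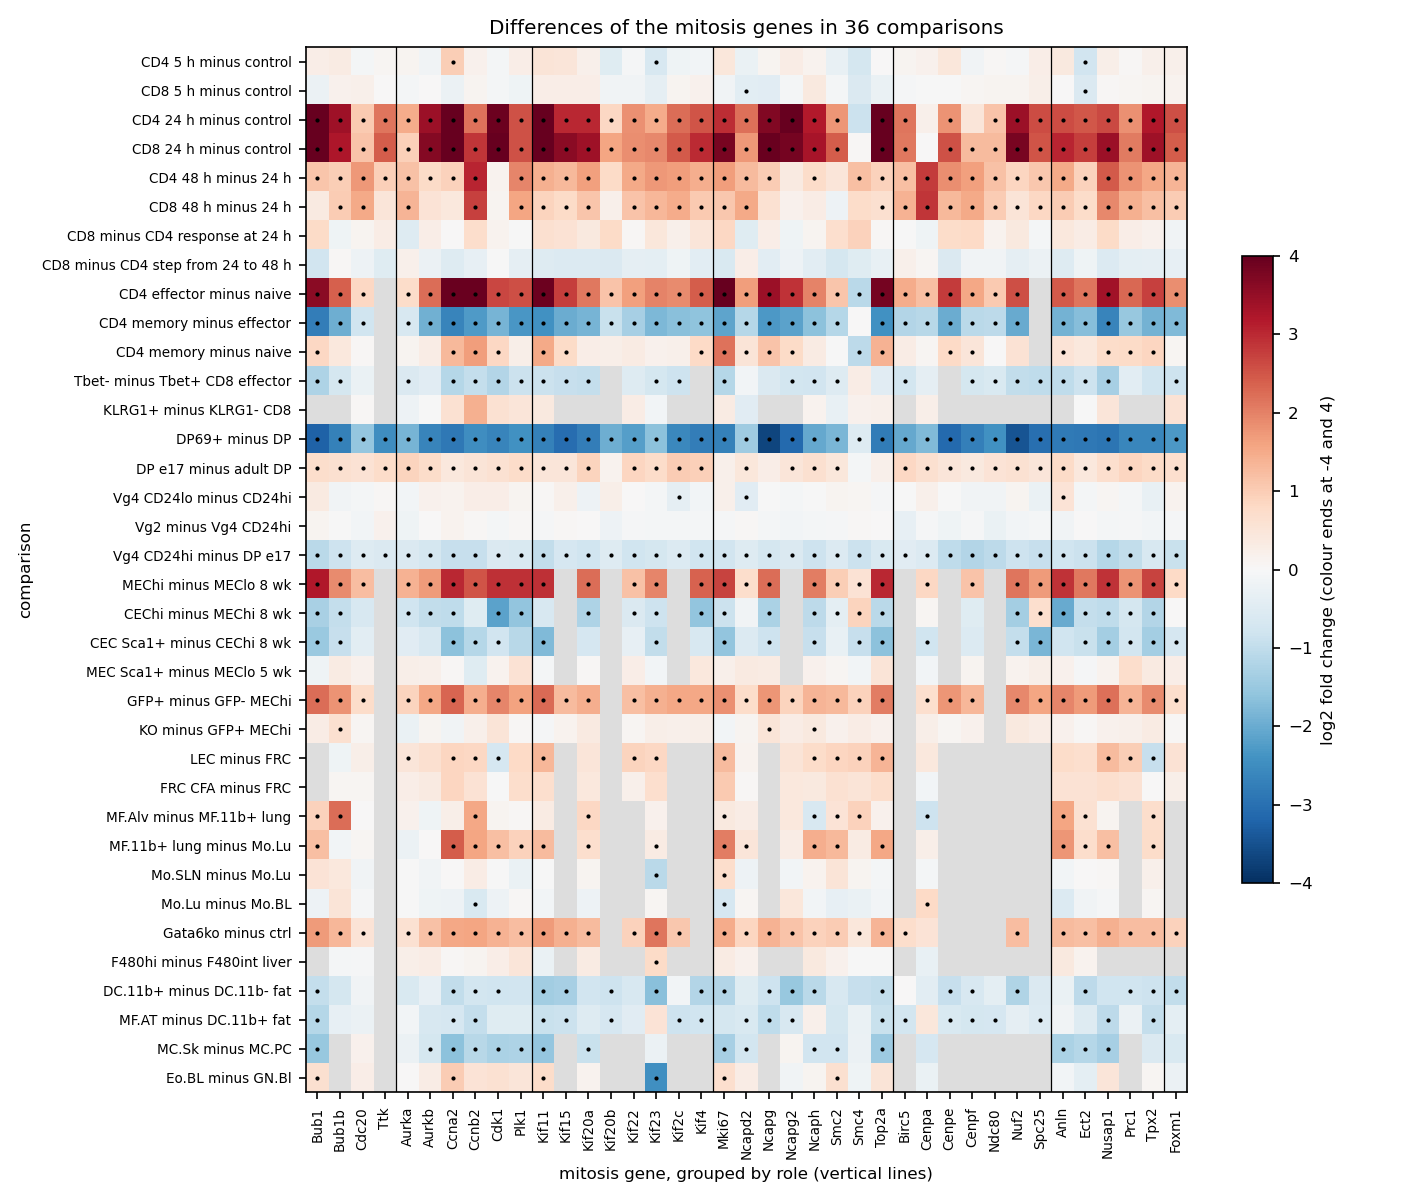
Log2 fold change from limma of each of the 39 mitosis genes (columns, grouped by role) in each of the 36 comparisons (rows); red is higher and blue lower in the group named first, the colour ends at -4 and 4, a dot marks an adjusted p under 0.05 and grey marks a gene below the filter. Nearly whole rows change one way in T cells at 24 h, CD4 effector cells and DP69+ thymocytes, while Smc4, Cenpa and Kif23 depart in several rows.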

How the data were processed

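RNA of sorted mouse cells was measured on Affymetrix MoGene arrays. The deposited values are linear intensities, which the authors made by RMA with Affymetrix Power Tools (versions not given in the sources used here) per the submitters' processing notes. Taking log2 of the deposited intensities was done here. Of 24922 probe sets 21425 were listed with 1 gene symbol, 1399 with several, and 2098 were not listed and are unnamed here; only the first kind named a gene. Groups came from the sample labels.

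Comparisons were fitted with limma 3.58.1 in R 4.3.3 (lmFit and eBayes), in 13 fits that each held groups of related cells; the labels do not say which arrays were run together. A probe set entered if the group where it was brightest had a mean at or above the median value of the fit. Benjamini-Hochberg adjustment ran over all probe sets of a comparison, and calls were made at 0.05. A fold against a group within the background level of 94.6 is given as a lower bound against that level. The fits were tested on simulated data.

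The members and gene lists were chosen with earlier results of these data known. The text names members by role, the largest called change in each direction and members that go against the rest, the 5 most and 5 least alike, the 15 other genes most like the module, and the leading called changes of a list; members shown as examples beyond these were chosen after their values were seen. Alternatives covered the filter, quantile normalization, an offset of 32 before the log, all arrays in one fit, trend and robust variances, the replicate number as a block, and each array left out.

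Equal replicate numbers were checked for pairing: of 34 pairs of groups, 11 shared 3 or more numbers. In 2 of these every same-numbered correlation of deviations was above 0.1: GFP+ with GFP- epithelium (0.204 to 0.519) and the liver macrophages (0.129 to 0.475). The block changed no call count there.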

Additional observations from a re-analysis of the deposited data

Results flagged for a closer look

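In the 2 groups of 4 arrays, peritoneal mast cells and blood neutrophils, the 39 members and the module mean were each screened for a highest or lowest array whose gap to the nearest other array was large for the group's range. Of these 80 cases 5 stood out, and chance alone gives about 1 in 20. In peritoneal mast cells the array labelled replicate 0 was the highest for Kif11, at 656.4 against 288.5 to 328.8 in the other 3 arrays. The same array was the highest for Kif2c, at 104.5 against 68.1 to 71.0, and for Foxm1, at 323.7 against 137.7 to 158.2. The labels of that array leave the excluded markers empty. In blood neutrophils replicate 6 was the lowest for Ncapg, at 43.1 against 52.9 to 54.2, which is within background, and replicate 5 was the lowest for Cenpa, at 365.0 against 422.6 to 433.9.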

How the results depend on the processing

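No called member changed direction under any alternative run. The counts of members called in the T cell responses at 24 and 48 h, the DP69+ cells and the GFP+ cells kept within 1.5 times of the given count when any 1 array was left out. Leaving out 1 array gave 1 to 3 members for CD4 and 0 to 1 for CD8 cells at 5 h, 0 to 1 for the CD8 against CD4 response at 24 h, 8 to 20 for memory against naive cells, 12 to 25 for Tbet- and 0 to 1 for KLRG1+ cells. It gave 1 to 4 for Vg4 CD24lo cells, 7 to 18 for Sca1+ cortical, 0 to 2 for Sca1+ medullary and 1 to 4 for KO epithelium, and 3 to 8 for LEC. It gave 2 to 4 for node and 0 to 3 for lung monocytes, 18 to 32 for the arrays labelled Gata6ko, 1 to 3 in liver, 4 to 25 and 7 to 19 in fat, and 3 to 6 for eosinophils. A stricter filter at the 75th percentile tests fewer members. Of the member calls that it could still test, 418 stayed the same and 0 became weaker. It called 15 for effector against naive, 14 for memory against effector, 9 for memory against naive, 9 for Tbet-, 6 for Vg4 CD24lo, 14 for MEChi, 12 for CEChi, 10 for Sca1+ cortical, 20 for GFP+, 5 for LEC, 6 for alveolar and 4 for CD11b+ lung macrophages, 9 for Gata6ko, 12 for fat macrophages and 8 for skin mast cells. With no filter CD11b+ lung macrophages had 26, and CD8 cells at 5 h had 1. For the following the cause was not tested. With all arrays in one fit the counts were 0 for CD8 cells at 5 h, 12 for memory against naive, 1 for KLRG1+, 22 for embryonic double-positive cells, 0 for Vg4 CD24lo, 1 for KO and 1 for lung against blood monocytes. Quantile normalization within a fit gave 1 for CD8 cells at 5 h, 5 for Vg4 CD24lo and 1 for KO; the offset of 32 gave 1 and 6 for the first 2, and trend and robust variances gave 6 for Vg4 CD24lo. Quantile normalization moved the median of all probe sets by over 0.1 in CD4 cells at 24 h, from 0.04 to -0.08, where 36 members were then higher and Smc4 lower. With the replicate block 1 member was called for KLRG1+ cells, and for fat macrophages 6, where same-numbered arrays correlated at -0.631 to -0.305 and so share only a number. The block moved no other count by over 1.5 times. The 10 groups with the highest module mean were the same under 5 other ways of computing it. Members with a likeness of 0.9 or more numbered 33 with quantile normalization and 35 with the offset, both added after seeing the data. Genes near the background level have compressed differences, and 2 or 3 arrays a group limit the precision.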
